A study of Mus musculus with 7 samples.

Results

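Egr1, Egr2, Egr3, Nab2, Nr4a1 and Nr4a3 are 6 genes whose transcripts are switched on within minutes to hours of antigen receptor signalling, and they are widely read as gauges of how strong that signal was. They were taken by gene symbol, and all 6 were present among the 32286 features of single-cell libraries of mouse thymocytes. Each gene is described by its level in thymocyte barcodes of every library, by the share of barcodes in which it was detected, and by how its unique molecular identifiers (UMIs) were spread over barcodes.

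The T cell receptor reaches these genes through the adaptor LAT, which couples the receptor to calcium and ERK signalling. ERK acts on ternary complex factors and serum response factor at the Egr promoters, and calcium acts through NFAT and MEF2 proteins at the Nr4a promoters. In the thymus a strong signal from a γδ receptor is associated with the γδ fate and a weaker signal from the pre-T cell receptor with the αβ fate, and the EGR proteins, with the inhibitor Id3 downstream, are known as carriers of that difference.

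The series holds 7 libraries of C57BL/6 background, 1 per group, into each of which 500 splenic B cells had been spiked. The 5 wild-type libraries were CD4- CD8- double-negative (DN) thymocytes from pooled thymi of both sexes, 6 to 8 weeks old, enriched with beads against CD4 and CD8 before sorting. These were WT DN3a (before β-selection), WT DN3b γδ- and WT DN4 γδ- (without a surface γδ receptor, the αβ side, gated also on CD71), and WT DN3b γδ+ and WT DN4 γδ+ (with a surface γδ receptor). The 2 Lat-KO libraries, DN3 γδ- and DN3 γδint (intermediate γδ receptor staining), came from Lat-/- mice that also carried the TCRd-H2BEGFP reporter. The methods describe these as sorted from total thymocytes without the bead step, so genotype and handling cannot be told apart, and the age of the Lat-KO mice was not given in the labels. The sort gates themselves set which stages are compared.

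After filtering, 71081 of 90016 barcodes were kept as thymocytes and 1578 as spiked B cells. Thymocyte barcodes numbered 5274 to 18515 per library, with a median of 5737.5 to 18506 UMIs each. Lat, the gene deleted in the knockout, stood at 357 to 648.1 CPM (UMIs of the gene scaled to a fixed total per library) in the 5 wild-type libraries and at 4.83 CPM in Lat-KO DN3 γδ- and 0.899 CPM in Lat-KO DN3 γδint, as the labels say. The 10 T cell markers summed to 3437 to 11461 CPM. Between 181 and 426 barcode sequences per library also occurred in another library, and leaving them out moved no ratio of the 6 genes beyond its interval. Lat-KO DN3 γδint had the lowest share of ribosomal protein transcripts, 18.2% against 27.7 to 33.8% elsewhere, and its B cells were also low at 19.3%. Without mitochondrial and ribosomal protein counts in the totals, 12 of 54 ratios of the 6 genes moved beyond their intervals. The log2 ratios of Lat-KO DN3 γδint shifted by -0.20 over Lat-KO DN3 γδ- and by -0.16 over WT DN3b γδ+. Any further part of this low share in the results was not tested.

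With 1 library per group there was no replicate, no test between groups was possible and no p-value is given. All 95% intervals are exact and cover counting error only. A ratio was called higher or lower where it reached 2-fold with at least 5 CPM in 1 of the libraries compared. Levels are compared within a gene and not between genes. Because the libraries differ in cycling, some ratios are also given within the lowest cell cycle band, the barcodes with at most 25 UMIs of 94 cycle genes among 4000.

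Promoter sequences are shown for 4 of 6 members, Egr2, Nr4a1, Nr4a3 and Nab2, from RefSeq promoter entries on GRCm38.p6. They show which letters of inducible elements these promoters hold. Egr1 was left out of the promoters shown, and no entry was found for Egr3. The CArG box is the element of the serum response factor route above, the other motifs are general elements of inducible promoters, and NFAT and MEF2 sites were not searched. Capitals mark TGACG or its reverse complement CGTCA (the core of the cAMP response element) and the CArG box bound by serum response factor. They also mark GCGGGGGCG or its reverse complement (the motif of EGR proteins). Positions count from the RefSeq start of transcription. RefSeq lists 5 promoter entries for Egr2. Of these, 3 overlap, begin at GENCODE starts and share their motif matches, and the most upstream of the 3 is shown. This Egr2 window holds a CArG box at -72 between CRE cores at -111 and -55. Of the other Egr2 entries, chr10:67535249-67535548 holds none of the motifs and chr10:67537316-67537615 holds a CArG box but no CRE core. The Nr4a1 window holds CRE cores at -233, -213, -69 and -40 and the EGR motif at -60. The Nr4a3 window holds CRE cores at -231, -213, -205 and -147, counted from the RefSeq start at 48045305. The GENCODE gene begins upstream of that, at 48045153, so the core at -147 lies within its transcribed sequence, and the window is cut shortly after it. The Nab2 window held none of these. TGACGTCA, GCGTGGGCG, AAAGGTCA and the AP-1 site were also searched and are not in these windows.
Egr2, chr10:67537619-67537868, plus strand: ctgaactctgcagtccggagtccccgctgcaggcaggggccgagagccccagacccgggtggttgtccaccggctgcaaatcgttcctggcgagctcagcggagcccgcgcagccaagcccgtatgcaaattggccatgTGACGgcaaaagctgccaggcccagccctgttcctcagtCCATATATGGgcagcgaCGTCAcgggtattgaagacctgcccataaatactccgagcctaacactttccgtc
Nr4a1, chr15:101266596-101266845, plus strand: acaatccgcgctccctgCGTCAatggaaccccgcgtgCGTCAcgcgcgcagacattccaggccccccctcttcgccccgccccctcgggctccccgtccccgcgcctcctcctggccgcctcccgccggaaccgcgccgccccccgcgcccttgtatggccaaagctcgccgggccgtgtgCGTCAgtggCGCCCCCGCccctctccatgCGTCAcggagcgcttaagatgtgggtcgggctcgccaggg
Nr4a3, chr4:48045055-48045167, plus strand: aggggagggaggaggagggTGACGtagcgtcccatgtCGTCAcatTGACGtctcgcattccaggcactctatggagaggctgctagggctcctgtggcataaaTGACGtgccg
Nab2, chr10:127666704-127666900, minus strand: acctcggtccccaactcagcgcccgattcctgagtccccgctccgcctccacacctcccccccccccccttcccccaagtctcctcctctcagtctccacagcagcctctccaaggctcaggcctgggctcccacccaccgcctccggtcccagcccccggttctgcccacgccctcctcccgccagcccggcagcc

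Over 32851 RefSeq promoters of 300 bases, searched on both strands, 20.8% held TGACG at least 1 time and 0.231% at least 4 times, the number seen in both the Nr4a1 and the Nr4a3 promoter. The CArG box was in 1.63% and GCGGGGGCG in 2.91%. The letters are a description of these windows, and no binding was measured.

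Egr1 (ENSMUSG00000038418), a zinc finger factor of the immediate early response, was highest in the γδ+ libraries. WT DN3b γδ+ held 59.5 CPM (95% interval 58.5 to 60.6), and WT DN4 γδ+ held 37.7 CPM (36.3 to 39.2). WT DN3a followed with 25.0 CPM (23.7 to 26.4). The Lat-KO libraries were lower, with 17.1 CPM (15.8 to 18.5) in DN3 γδint and 13.6 CPM (12.6 to 14.6) in DN3 γδ-. The αβ side was lowest, at 7.14 CPM in WT DN3b γδ- and 6.76 CPM in WT DN4 γδ-, whose intervals overlap. Over all thymocyte barcodes the Lat-KO levels of Egr1 therefore lay above both γδ- wild-type libraries and below WT DN3a. Within the lowest cell cycle band WT DN4 γδ- held 31.2 CPM, above Lat-KO DN3 γδint at 23.3 CPM and Lat-KO DN3 γδ- at 15.3 CPM. Without barcodes of under 10 T cell marker UMIs WT DN4 γδ- held 14.2 CPM in that band.

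Egr2 (ENSMUSG00000037868, mm10 chr10:67535475-67542188, plus strand, 7 coding transcripts) encodes a factor needed for thymocyte selection. WT DN3b γδ+ reached 7.14 CPM (6.77 to 7.53), and 4.95 CPM (4.45 to 5.51) was found in WT DN4 γδ+. In the other 5 libraries it lay between 0.133 CPM in WT DN3b γδ- and 0.800 CPM in WT DN3a, on 9 to 46 UMIs per library. Neighbours in that lower order had overlapping intervals, but its ends did not. WT DN3a (0.579 to 1.08) lay above WT DN3b γδ- (0.0969 to 0.178) and Lat-KO DN3 γδ- (0.0818 to 0.340). Within the lowest cell cycle band WT DN4 γδ- held 2.75 CPM, on 15 UMIs, above WT DN3a at 0.720 CPM.

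Egr3 (ENSMUSG00000033730, chr14:70077203-70082614, plus strand) shares much of its function with Egr2 in thymocytes. The level in WT DN3b γδ+ was 12.4 CPM (11.9 to 12.9), next to 10.7 CPM (9.97 to 11.5) for WT DN4 γδ+. WT DN3a held 0.986 CPM, Lat-KO DN3 γδ- 0.437 CPM and Lat-KO DN3 γδint 0.423 CPM. WT DN4 γδ- held 0.148 CPM and WT DN3b γδ- 0.0945 CPM (32 UMIs among 18515 barcodes). Over all thymocyte barcodes the highest level was 130.9 times the lowest. Within the lowest cell cycle band WT DN4 γδ- held 3.30 CPM, on 18 UMIs, above WT DN3a at 0.982 CPM.

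Nab2 (ENSMUSG00000025402, chr10:127660918-127668568, minus strand) encodes a corepressor that binds EGR proteins and is itself an EGR target. The γδ+ libraries were highest, with 39.3 CPM (38.4 to 40.2) at DN3b and 29.1 CPM (27.8 to 30.4) at DN4. WT DN3b γδ- held 5.71 CPM (5.46 to 5.97), WT DN3a 3.01 CPM and WT DN4 γδ- 2.56 CPM, the last pair overlapping. The Lat-KO libraries were lowest, with 1.24 CPM (0.913 to 1.65) in DN3 γδint and 0.318 CPM (0.182 to 0.516) in DN3 γδ-. WT DN3b γδ- thus stood above WT DN3a, but not within the lowest cell cycle band, where it held 2.02 CPM against 2.38 CPM. Both Lat-KO libraries stood below every wild-type library. The gene overlaps Stat6 and Nemp1 on the other strand, and how the counting used strand was not stated, so a part of its counts is uncertain.

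Nr4a1 (ENSMUSG00000023034, chr15:101254269-101274795, plus strand) encodes Nur77, an orphan nuclear receptor used as a reporter of T cell receptor signalling. WT DN4 γδ+ had 102.3 CPM and WT DN3b γδ+ 85.8 CPM (84.5 to 87.1), with intervals apart. WT DN4 γδ- held 16.7 CPM (16.1 to 17.2), WT DN3a 11.8 CPM (10.9 to 12.8) and WT DN3b γδ- 8.31 CPM (8.00 to 8.62). The Lat-KO libraries were at the bottom of the order, at 1.43 CPM (1.12 to 1.80) in DN3 γδ- and 0.820 CPM (0.557 to 1.16) in DN3 γδint, or 72 and 31 UMIs. The top and bottom levels were 124.9-fold apart.

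Nr4a3 (ENSMUSG00000028341, chr4:48045153-48086447, plus strand) encodes a receptor of the same family and varied least of the 6, 6.44-fold from top to bottom. Among γδ+ libraries the level was 11.7 CPM (10.95 to 12.6) at DN4 and 9.76 CPM (9.33 to 10.2) at DN3b. WT DN3a at 6.89 CPM (6.20 to 7.62) and Lat-KO DN3 γδ- at 5.86 CPM (5.21 to 6.57) overlapped, and Lat-KO DN3 γδint had 3.91 CPM. WT DN3b γδ- and WT DN4 γδ- were lowest, at 1.85 and 1.82 CPM. Over all thymocyte barcodes Nr4a3, unlike Nr4a1, was higher in both Lat-KO libraries than on the wild-type αβ side. Within the lowest cell cycle band WT DN4 γδ- held 8.25 CPM of Nr4a3, on 45 UMIs, above Lat-KO DN3 γδ- at 6.51 CPM. Lat-KO DN3 γδint lay below that, and WT DN3b γδ-, at 4.22 CPM, below both Lat-KO libraries.

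**Figure D1:**
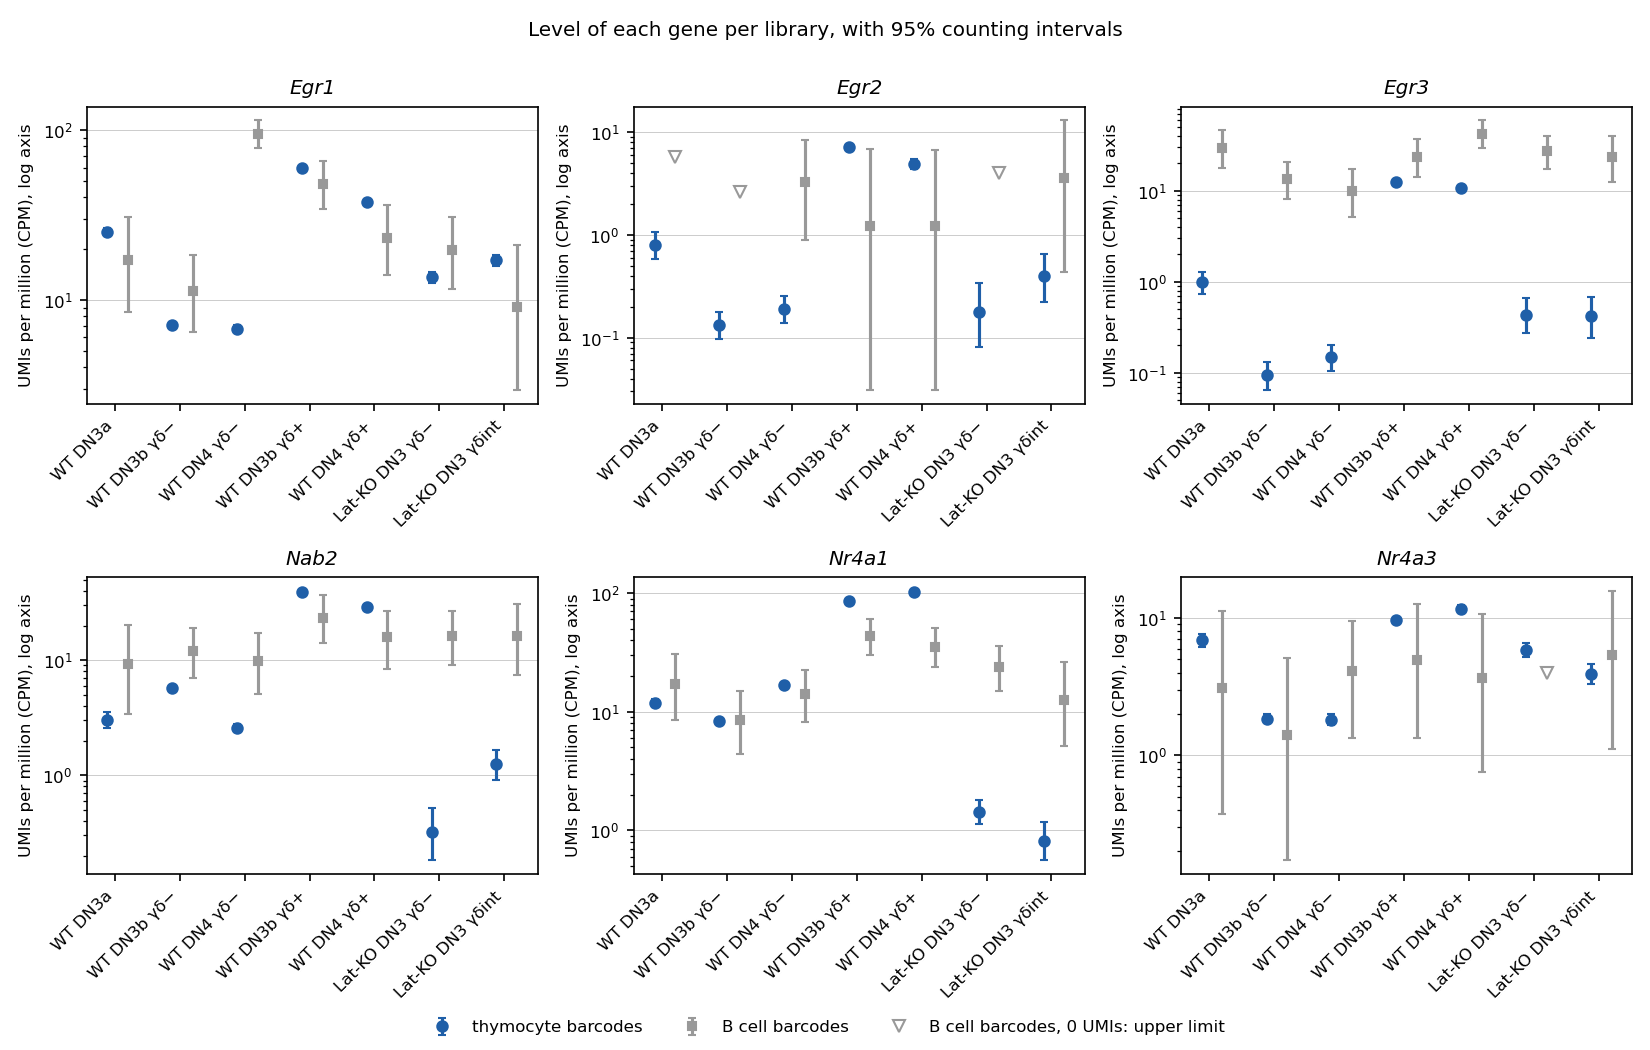
Level of each of the 6 genes in the 7 libraries, in CPM on a log axis, with 95% counting intervals. Blue circles are thymocyte barcodes, grey squares spiked B cells and open triangles the upper limit where B cells held 0 UMIs. Among thymocytes the 2 WT γδ+ libraries hold the highest level of every gene, and Nab2 and Nr4a1 are lowest in the Lat-KO libraries.

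The spiked B cells were sorted from spleen on their own and added before the droplet step of each library. They give a second reading. B cells can express these genes themselves, so their barcodes are not a gene-free background. In B barcodes Egr1 ranged from 9.04 CPM in Lat-KO DN3 γδint to 94.6 CPM in WT DN4 γδ-, and Nr4a1 from 8.49 CPM among γδ- to 43.2 CPM among γδ+ cells of the WT DN3b pair. Between WT DN3b γδ+ and WT DN3b γδ- the B cell log2 ratio was 2.09 (1.22 to 3.03) for Egr1 and 2.35 (1.37 to 3.43) for Nr4a1, in the direction of the thymocytes. For Nab2 and Egr3 it was 0.96 (-0.06 to 1.998) and 0.80 (-0.19 to 1.80), with intervals that reach 0. For WT DN3b γδ+ over WT DN3a the B cells had 1.496 (0.50 to 2.61) for Egr1, where the thymocytes had 1.25, and 1.34 (0.33 to 2.47) for Nr4a1, where they had 2.86. For Lat-KO DN3 γδint over WT DN3b γδ+ the B cells had -2.41 (-4.11 to -1.07) for Egr1, beside -1.80, and -1.77 (-3.19 to -0.58) for Nr4a1, beside -6.71. In these comparisons with WT DN3a and Lat-KO DN3 γδint the thymocyte Egr1 ratio lay within the B cell interval, and the Nr4a1 ratio lay outside it. Within the WT DN3b pair this was reversed. The γδ+ to γδ- thymocyte ratio of Nr4a1, 3.37, lay inside the B cell interval, and that of Egr1, 3.06, lay just above it. The B cells did not always follow the thymocytes. For Egr1 the B cell ratio was -2.03 (-2.82 to -1.32) in WT DN4 γδ+ over WT DN4 γδ-, against 2.48 in thymocytes. It was 3.06 (2.30 to 3.92) in WT DN4 γδ- over WT DN3b γδ-, against -0.08. For Nr4a1 it was 0.48 (-0.62 to 1.68) in Lat-KO DN3 γδ- over WT DN3a, against -3.05. Between the DN4 libraries the B cells went with the thymocytes for Egr3, at 2.11 (1.13 to 3.19) beside 6.18. They also did for Nr4a1, at 1.34 (0.42 to 2.29) beside 2.62. For Egr2, Nab2 and Nr4a3 the B cell intervals reached 0 there. The B barcodes also held transcripts of Lat, so they are not a reading free of T cell transcripts. Lat stood in them at 161.7 CPM in WT DN3b γδ+ and 242.5 CPM in WT DN3b γδ-. The thymocytes of these libraries held 383.3 and 468.0 CPM. In B barcodes of Lat-KO DN3 γδ- and γδint Lat stood at 3.25 and 1.81 CPM. Whether free RNA or handling carried the B cell differences was not tested. In the Lat-KO libraries the B cells held 23.9 and 12.7 CPM of Nr4a1, above the thymocytes of the same libraries. Egr3 was higher in B cells than in thymocytes of all 7 libraries, at 9.87 to 42.6 CPM.

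WT DN3b γδ+ against WT DN3b γδ- compares thymocytes of 1 stage with and without the γδ receptor. All 6 genes were higher in WT DN3b γδ+ and none was lower, where 5.61% of 8746 genes tested were called higher and 2.68% lower. The median log2 ratio of the 6 was 3.21, against -0.03 over all genes. Egr3 differed most, at 7.03 (6.53 to 7.58), followed by Egr2 at 5.75 (5.32 to 6.21). Nr4a1 differed by 3.37 (3.31 to 3.43), Egr1 by 3.06 (2.997 to 3.12), Nab2 by 2.78 (2.71 to 2.86) and Nr4a3 by 2.40 (2.27 to 2.53). On the linear scale these were 8.34-fold for Egr1, 53.8-fold for Egr2, 10.3-fold for Nr4a1 and 5.28-fold for Nr4a3. Within the lowest cell cycle band Nab2 was at 4.81 and Nr4a1 at 4.28. Egr2 and Egr3 had no UMI among γδ- barcodes of that band, so their ratios, taken against a floor of 3 UMIs, were at least 4.82 and 5.35 there.

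WT DN3a is the stage before either branch. Against it, WT DN3b γδ+ was higher by 3.70 (3.48 to 3.94) for Nab2, 3.65 for Egr3, 3.16 for Egr2, 2.86 for Nr4a1 and 1.25 (1.17 to 1.33) for Egr1. Nr4a3 differed by 0.50 (0.34 to 0.67), short of 2-fold, but by 1.56 within the lowest cell cycle band. In that band Nab2 was at 4.58, Egr3 at 4.52, Egr2 at 4.44 and Nr4a1 at 3.63. Over all thymocyte barcodes 5 of 6 were called higher and none lower, where 10.7% of 9358 genes were higher and 16.9% lower. WT DN3b γδ- against WT DN3a went the other way for most of them. Nr4a3 was lower by a log2 ratio of -1.90 (-2.09 to -1.71) and Egr1 by -1.81 (-1.91 to -1.71), both called lower, while Nr4a1 at -0.51 was within 2-fold. Nab2 was at 0.92 (0.69 to 1.16), also within 2-fold, but passed it at 1.29 with a T cell marker rule for thymocytes and at 1.28 with TMM scaling, and stood at -0.24 within the lowest cell cycle band. The Nr4a3 call was lost in that band at -0.75, while Egr1 stayed past 2-fold at -1.56. Egr2 and Egr3 were under 5 CPM in both libraries and were not counted. Of the 4 counted, none was higher and 2 were lower, beside 9.89% of all genes higher and 18.0% lower.

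From DN3b to DN4 each branch was compared on its own, and the difference between branches was not tested. On the γδ+ side no member reached 2-fold in either direction, where 13.4% of genes were higher and 6.32% lower. Egr1 had a log2 ratio of -0.66 (-0.72 to -0.60), Egr2 -0.53, Nab2 -0.43 and Egr3 -0.21, all lower in DN4, while Nr4a3 at 0.27 and Nr4a1 at 0.25 were higher. The sign for Nr4a1 and Nr4a3 depended on the scaling, at -0.05 and -0.04 with TMM factors. Among barcodes with few cell cycle UMIs all 6 were lower in DN4, with Egr2 at -1.79, Nab2 at -1.14, Egr1 at -1.05 and Egr3 at -1.02 past 2-fold, and Nr4a3 at -0.72 and Nr4a1 at -0.43 within it. With a second thinning draw for the bands Egr3 was at -0.75, within 2-fold. On the γδ- side Nr4a1 was just past 2-fold at 1.004 (0.93 to 1.07) and Nab2 lower at -1.16 (-1.29 to -1.02), and Egr1 was level at -0.08 (-0.17 to 0.01). Of the 3 counted over all thymocyte barcodes, 1 was higher and 1 lower, beside 0.599% of genes higher and 1.08% lower. Both calls were fragile. Nr4a1 fell short of 2-fold at 0.98 when barcodes with any UMI of Cd79a, Cd79b or Ms4a1 were left out, and Nab2 at -0.98 with a T cell marker rule and at -0.71 with barcodes weighted equally. Within the lowest cell cycle band Nr4a1 was at 2.44, Nab2 turned to 2.03 and Egr1 was at 1.82, or 0.75 without barcodes of under 10 T cell marker UMIs. Egr2 and Egr3 had no UMI in WT DN3b γδ- barcodes of that band. Against a floor of 3 UMIs they were at least 2.32 and 2.58 there, on 15 and 18 UMIs in WT DN4 γδ-. Between the DN4 libraries, γδ+ was higher by 6.18 for Egr3, 3.50 for Nab2, 2.69 for Nr4a3, 2.62 for Nr4a1 and 2.48 for Egr1. These 5 were the members counted, all called higher and none lower, where 21.3% of genes were higher and 7.94% lower. Egr2, at 4.95 CPM just under the minimum of 5 CPM, had a log2 ratio of 4.71 (4.27 to 5.19). Within the lowest cell cycle band these ratios were much smaller, at 1.74 for Egr3, 1.64 for Nab2, 1.41 for Nr4a1, 0.71 for Egr2, 0.63 for Nr4a3 and 0.08 for Egr1, so the calls for Nr4a3 and Egr1 were lost. Egr1 was at 1.21 in that band once barcodes with under 10 T cell marker UMIs were left out.

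The Lat-KO libraries ask what remained without the adaptor. Against WT DN3a, Lat-KO DN3 γδ- had a Nr4a1 log2 ratio of -3.05 (-3.42 to -2.69), an 8.27-fold lower level, and this was the 1 of 3 counted members called lower, with none higher. Over all genes 3.47% were higher and 0.832% lower. Egr1 was lower by -0.88 (-1.02 to -0.75), a 1.85-fold difference, and Nr4a3 by -0.23 (-0.46 to -0.01). Egr1 passed 2-fold and was called lower at -1.05 with TMM scaling and at -1.02 without mitochondrial and ribosomal counts. Nab2, under 5 CPM in both, was at -3.24 (-4.09 to -2.50). Within the family of orphan receptors, Nr4a1 was thus 8.27-fold and Nr4a3 1.17-fold below WT DN3a in the same library. With barcodes weighted equally the Nr4a3 ratio turned to 0.13.

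Lat-KO DN3 γδint carries some γδ receptor without LAT and is set against WT DN3b γδ+. All 6 genes were lower and none higher, where 7.17% of 9587 genes were lower and 29.2% higher. The median log2 ratio of the 6 was -4.52 against 0.58 over all genes. Nr4a1 was 104.7-fold lower, at -6.71 (-7.27 to -6.20). Nab2 was 31.6-fold, Egr3 29.2-fold and Egr2 18.01-fold lower. Egr1 and Nr4a3 differed least, 3.49-fold and 2.49-fold lower. The sizes depended on the setting, although all 6 stayed lower. Within the lowest cell cycle band Nr4a1 was at -7.81, Nab2 at -7.18 on 6 UMIs in Lat-KO DN3 γδint, Egr2 at -5.10 and Nr4a3 at -1.90. With TMM scaling Egr1 was at -2.54 and Nr4a3 at -2.06. The Lat-KO pair itself, γδint over γδ-, gave 0.33 (0.18 to 0.49) for Egr1 and -0.58 (-0.88 to -0.29) for Nr4a3, neither past 2-fold, beside 4.59% of genes higher and 3.49% lower. Nab2 there was at 1.97 (1.12 to 2.88) and Nr4a1 at -0.80 (-1.46 to -0.18), both on levels under 5 CPM. Within the lowest cell cycle band Nab2 was at 0.31 and Nr4a1 at -1.28. Because 7 libraries serve 9 comparisons, the ratios share libraries and are not independent readings.

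**Figure D2:**
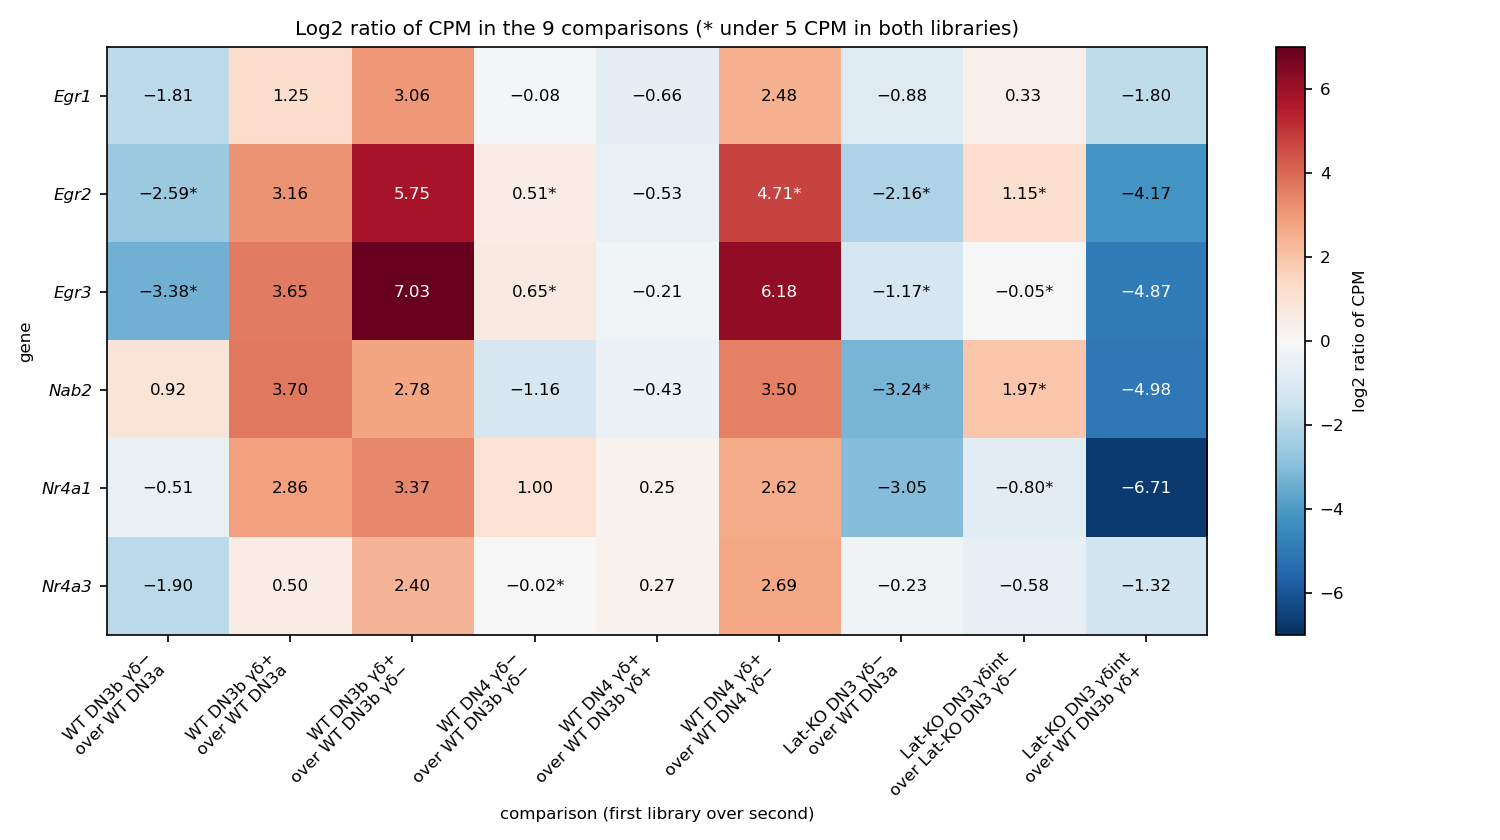
Heat map of the log2 ratio of CPM, printed in each cell, of the 6 genes (rows) in 9 comparisons of libraries (columns), red for higher and blue for lower in the first library. An asterisk marks a gene under 5 CPM in both libraries. All 6 ratios lie above 1 between γδ+ and γδ- at WT DN3b and below -1 for Lat-KO DN3 γδint over WT DN3b γδ+.

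The share of barcodes with at least 1 UMI was compared after each barcode was thinned to 4000 UMIs, since depth per barcode differed between libraries. Shallower barcodes were left out, which kept 4537 to 17673 per library. Nr4a1 was detected in 26.2% of WT DN3b γδ+ and 24.4% of WT DN4 γδ+ barcodes, in 6.40% of WT DN4 γδ-, 4.02% of WT DN3a and 3.19% of WT DN3b γδ-, and in 0.441 and 0.309% of the Lat-KO DN3 γδ- and γδint barcodes. In unthinned barcodes Nr4a1 was found in 55.4% of WT DN3b γδ+ and 37.3% of WT DN4 γδ+. The thinned B cell share was 1.85 to 18.1% over the 35 to 93 B barcodes per library that reached 4000 UMIs, of 160 to 349 in all with a median of 2411 to 3467.5 UMIs. Lat-KO thymocyte shares of Nr4a1 were thus below the B cell shares of the same libraries, 6.06 and 5.71%.

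Egr1 was detected in 18.6% of thinned WT DN3b γδ+ barcodes (40.0% unthinned), 10.1% of WT DN4 γδ+ (14.7% unthinned) and 8.59% of WT DN3a. Lat-KO barcodes held it in 5.26 and 6.11% and the 2 wild-type γδ- libraries in 2.48 and 2.73%. B cells held it in 0 to 29.03%, the highest in WT DN4 γδ-, and thymocytes were below the B cells of their own library in both wild-type γδ- libraries and in Lat-KO DN3 γδ-. Nab2 was detected in 14.6% of WT DN3b γδ+ and 8.62% of WT DN4 γδ+ barcodes (36.9 and 15.2% unthinned) and in 0.131 to 1.91% elsewhere, with 3.03 to 11.4% in B cells, which lay below the thymocytes only in the γδ+ libraries. Egr3 reached 4.51% and 2.48% in the γδ+ libraries (10.7 and 4.01% unthinned) and at most 0.310% in the others, while B cells held it in 2.15 to 13.6%, above the thymocytes of the same library in all 7, so B cells give no level without the gene for Egr3. The lowest thymocyte share, in WT DN3b γδ-, was 0.03395% beside 3.03% in its B cells. Egr2 reached 3.28% and 1.43% (8.58 and 2.83% unthinned) and at most 0.232% in the others. In B cells Egr2 was seen in 1.08% of WT DN4 γδ- barcodes and in none of the other libraries. Nr4a3 was detected in 4.06 and 3.97% of γδ+ barcodes (11.5 and 6.85% unthinned) and in 0.863 to 2.58% of the others, with 0 to 2.90% in B cells.

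The members were also counted together. At least 1 of the 6 was detected in 48.0% of thinned WT DN3b γδ+ barcodes and 38.2% of WT DN4 γδ+, against 14.6% of WT DN3a, 10.6% of WT DN4 γδ- and 8.09% of WT DN3b γδ-. The Lat-KO shares were 8.52% in DN3 γδ- and 8.49% in DN3 γδint. At least 2 members were found in 16.7 and 9.40% of the γδ+ libraries and in 0.212 to 1.56% of the rest. At least 3 were found in 5.05% of WT DN3b γδ+ and in 0 of 6125 Lat-KO DN3 γδ- barcodes, which allows a share of up to 0.0602%. All 6 were found in 3 barcodes of WT DN3b γδ+ and in 3 of WT DN4 γδ+.

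**Figure D3:**
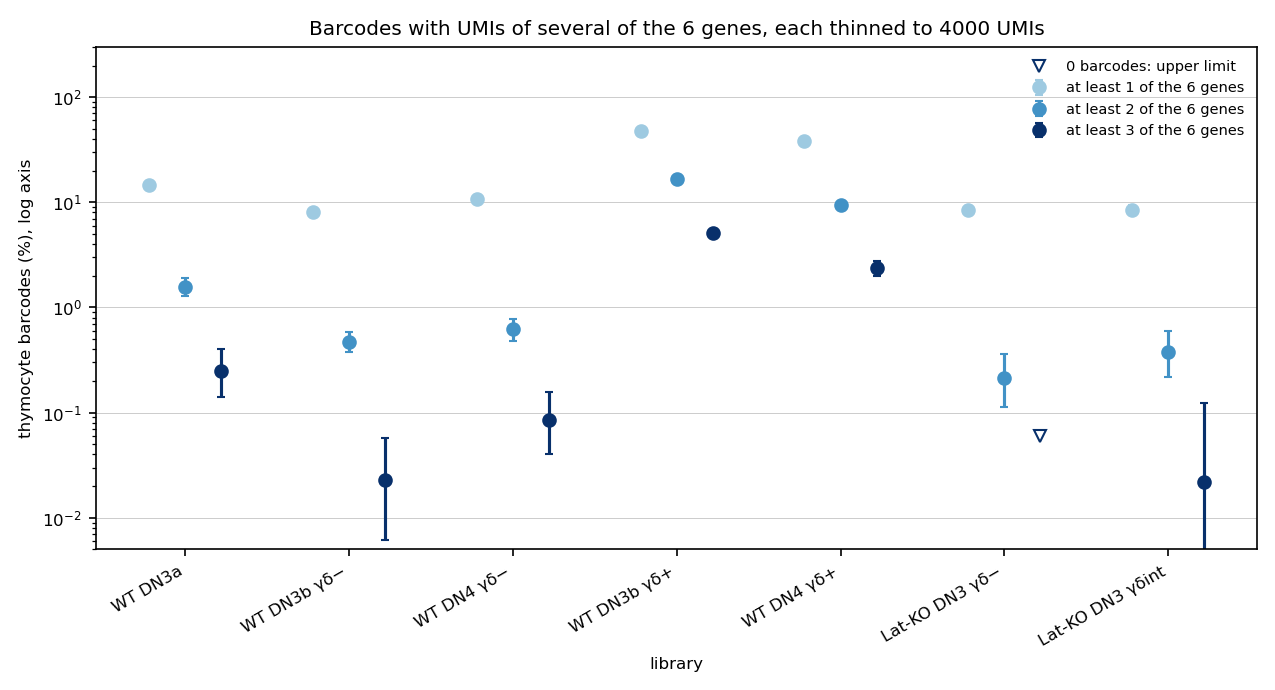
Share of thymocyte barcodes, thinned to 4000 UMIs, in which at least 1, 2 or 3 of the 6 genes were detected, per library, in percent on a log axis with exact 95% intervals. The open triangle is the upper limit where no barcode was found. The γδ+ libraries lie highest at every count, at 48.0 and 38.2% for at least 1 gene.

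The UMIs were spread unevenly over barcodes. Of the 12361 WT DN3b γδ+ barcodes, 5517 had no Nr4a1 UMI, 3158 had 1 and 116 had over 10, with 28 at most. Among barcodes with any, the mean was 2.46 UMIs. The top 1% of WT DN3b γδ+ barcodes held 36.2% of the UMIs of Egr3, 25.2% of Egr2, 24.2% of Nr4a3, 14.4% of Egr1, 10.7% of Nr4a1 and 9.61% of Nab2. This share rises as a gene gets rarer, so it does not rank the members. The variance over the mean at 4000 UMIs was 2.20 for Egr3, 1.92 for Nr4a1, 1.79 for Egr1 and 1.33 for Nab2 in WT DN4 γδ+. For WT DN3b γδ+ it was 1.73, 1.59, 1.63 and 1.19 in the same order of genes. In Lat-KO DN3 γδ- no barcode held more than 1 Nab2 UMI or more than 2 Nr4a1 UMIs.

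Detection of the members together was set beside the product of their single shares. At least 2 were found in 16.7% of WT DN3b γδ+ barcodes where the product gives 14.6%, and in 9.40% of WT DN4 γδ+ where it gives 7.67%. WT DN3a had 1.56% against 0.831%, WT DN3b γδ- 0.470% against 0.257% and WT DN4 γδ- 0.618% against 0.382%. Lat-KO DN3 γδint had 0.375% against 0.188%, and Lat-KO DN3 γδ- 0.212% against 0.206%. A share above the product was thus not particular to the γδ+ libraries. In WT DN4 γδ+, Egr3 was detected in 34.3% of barcodes with Egr2 and 2.02% of those without, and Nr4a1 in 55.6% with Egr2 and 24.0% without. Egr3 was in 10.6% of barcodes with Egr1 and 1.57% without. Smaller gaps were seen for the Egr2 pairs in WT DN3b γδ+, with Egr3 in 18.5% of barcodes with Egr2 and 4.03% without, and Nr4a1 in 51.4% with Egr2 and 25.4% without. The corepressor Nab2 followed its partner Egr1 more loosely, in 20.5% of WT DN3b γδ+ barcodes with Egr1 and 13.2% without. Nr4a3 was in 6.99% of barcodes with Nr4a1 and 3.02% without. In WT DN3a, Nr4a1 was in 10.5% of barcodes with Egr1 and 3.42% without. Barcodes of a library are not replicates and these shares carry no test.

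The libraries differed widely in cell cycle activity. Barcodes were split into 3 bands of near equal size over all libraries by the UMIs of 94 S and G2/M genes among 4000, at 25 and 61 UMIs. The bands are ranges of a score and not cell types, and 2.005 to 9.28% of barcodes per library lay within 1 UMI of a limit. The lowest band held 91.8% of WT DN3a, 91.0% of Lat-KO DN3 γδ-, 79.8% of WT DN4 γδ+ and 58.3% of Lat-KO DN3 γδint, but 7.58% of WT DN3b γδ+, 5.76% of WT DN4 γδ- and 3.76% of WT DN3b γδ-. Within WT DN3b γδ+ the members were higher in barcodes with fewer cycle UMIs. From the lowest to the highest band Nr4a1 went from 132.1 to 77.9 CPM, Nr4a3 from 21.0 to 8.77 CPM, Egr3 from 22.5 to 10.9 CPM, Egr2 from 15.6 to 5.29 CPM and Nab2 from 56.8 to 38.6 CPM. Egr1 was nearly level, at 68.1 and 59.5 CPM.

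In WT DN4 γδ+ the members did not move together. Nr4a3 was lower with more cycle UMIs, as in WT DN3b γδ+, at 12.7, 10.6 and 8.01 CPM in the lowest, middle and highest band. Egr3, at 11.04, 11.4 and 9.25 CPM, and Egr2, at 4.498, 6.64 and 5.54 CPM, had overlapping intervals in the lowest and highest band. Nr4a1 was level at 97.8, 99.7 and 95.3 CPM, while Egr1 was higher with more cycle UMIs, at 32.9, 42.0 and 47.8 CPM, and Nab2 likewise at 25.7, 31.3 and 36.8 CPM. In Lat-KO DN3 γδint Egr1 was lower with more cycle UMIs, at 23.3, 15.5 and 5.79 CPM. In the lowest band of WT DN4 γδ-, 680 barcodes, Egr1 reached 31.2 CPM, but 98 of its 170 UMIs lay in 58 barcodes with under 10 T cell marker UMIs, in which haemoglobin transcripts made up 25988 CPM. In the other 622 barcodes Egr1 was at 14.2 CPM and Nr4a1 at 39.4 CPM. The WT DN3b γδ- lowest band held 8.81 CPM of Egr1 and 6.79 CPM of Nr4a1. The Nab2 ratio of WT DN4 γδ- over WT DN3b γδ- in this band rests on 45 and 11 UMIs.

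**Figure D4:**
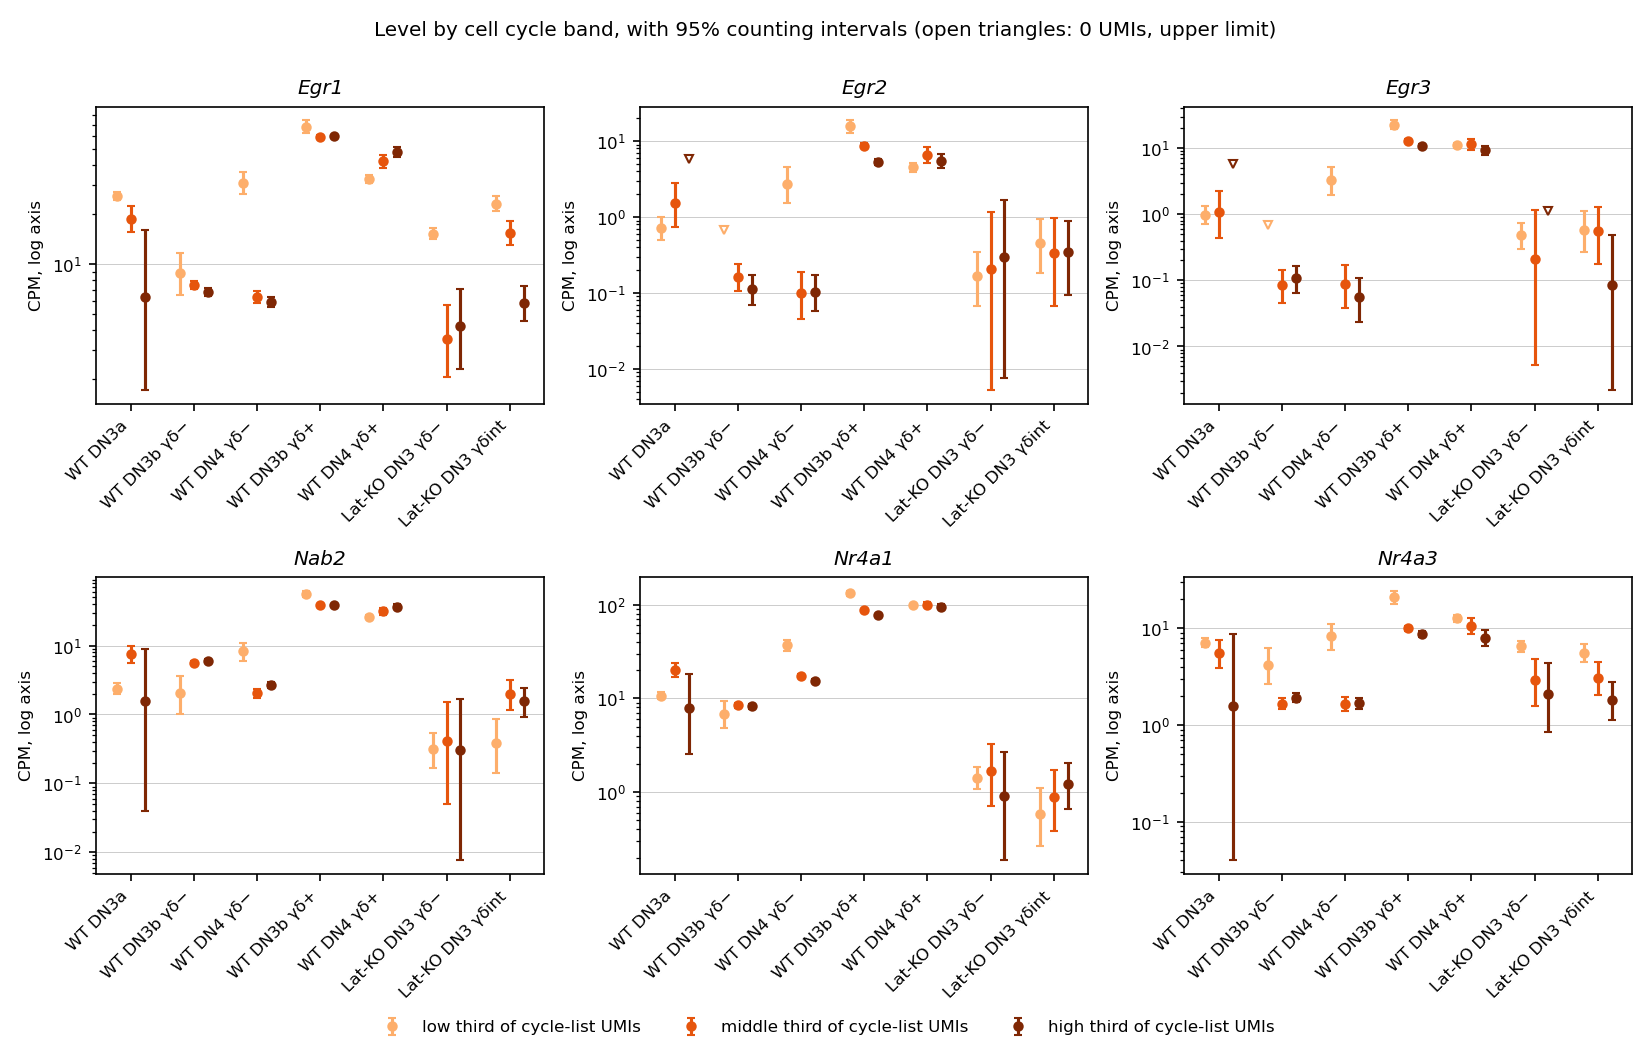
Level of each gene, in CPM on a log axis, in the low, middle and high band of cell cycle UMIs of each library, with 95% counting intervals and open triangles for the upper limit at 0 UMIs. In WT DN3b γδ+ Nr4a1 goes from 132.1 to 77.9 CPM, while in WT DN4 γδ+ it stays between 95.3 and 99.7 CPM.

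In WT DN4 γδ+, where γδ thymocytes take on effector programmes, the members were set against marker genes chosen after the values had been seen. Barcodes with Sox13, a transcription factor gene expressed by a subset of γδ thymocytes (3158 barcodes, or 45.5%), were lower for all 6. They held 2.50 CPM of Egr2 against 6.94 CPM without the marker, 5.45 CPM of Egr3 against 14.5 CPM, and 16.5 CPM of Nab2 against 38.3 CPM. The log2 ratios were -1.47 (-1.87 to -1.09), -1.41 (-1.68 to -1.15) and -1.21 (-1.36 to -1.06). Egr1 at -0.56, Nr4a3 at -0.37 and Nr4a1 at -0.31 differed by less.

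Barcodes with Il2rb, which marks interferon-γ-producing γδ cells among others (1341 barcodes), were higher for all 6, from 0.41 for Nr4a3 to 1.14 for Egr2. Ikzf2, another marker of such cells, was in 80.7% of barcodes. With it Egr1 was at 0.05 (-0.09 to 0.19) and Egr2 at 0.25 (-0.15 to 0.67), with intervals that reach 0. Egr3 was at 0.35, or 0.03 in a second thinning draw, and Nab2, Nr4a1 and Nr4a3 were at 0.56 to 0.57. Those with Zbtb16, the factor PLZF of innate-like T cells (167 barcodes), were higher for Egr3 at 1.89, Egr2 at 1.80 and Nab2 at 1.21, and had -0.24 for Nr4a1, which a second thinning draw turned to 0.31. Those with Pdcd1, the inhibitory receptor PD-1, were higher for all 6, up to 1.38 for Egr3. Cd5, a surface molecule whose level follows receptor signalling, went with higher values of all 6 in both libraries, by 0.30 to 0.83 at DN4 and by 0.51 to 0.80 at DN3b. Cd69, an activation marker, went with higher values of all 6 at DN3b, 0.32 to 0.69, but at DN4 Nab2 was at -0.16 (-0.29 to -0.03) while the other 5 were at 0.30 to 0.63. In WT DN3b γδ+ the Sox13 barcodes (2174, or 20.04%) were also lower for all 6, by -0.28 for Nr4a1 to -0.90 for Egr2. Il2rb and Maf, another factor gene of γδ subsets, did not repeat their DN4 patterns there. With Il2rb (345 barcodes) Egr1 was at -0.10, Egr2 at -0.16, Nab2 at 0.08 and Nr4a1 at 0.11, all with intervals that reach 0, and Nr4a3 was at 0.83, or 0.29 in a second thinning draw. Maf barcodes of WT DN4 γδ+ had -1.09 for Nab2 and -0.72 for Egr2, whereas those of WT DN3b γδ+ had 0.32 (0.19 to 0.44) for Nab2, 0.62 (0.34 to 0.89) for Egr2 and 0.28 for Nr4a1, with Egr1 and Egr3 at -0.01. These splits lie within 1 library each and share its cells. The sizes for the rarer genes also varied with the thinning draw. In a second draw Egr2 in WT DN4 γδ+ had -1.14 with Sox13 and 0.76 with Il2rb, and Egr3 had 0.94 with Pdcd1, with directions as before.

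**Figure D5:**
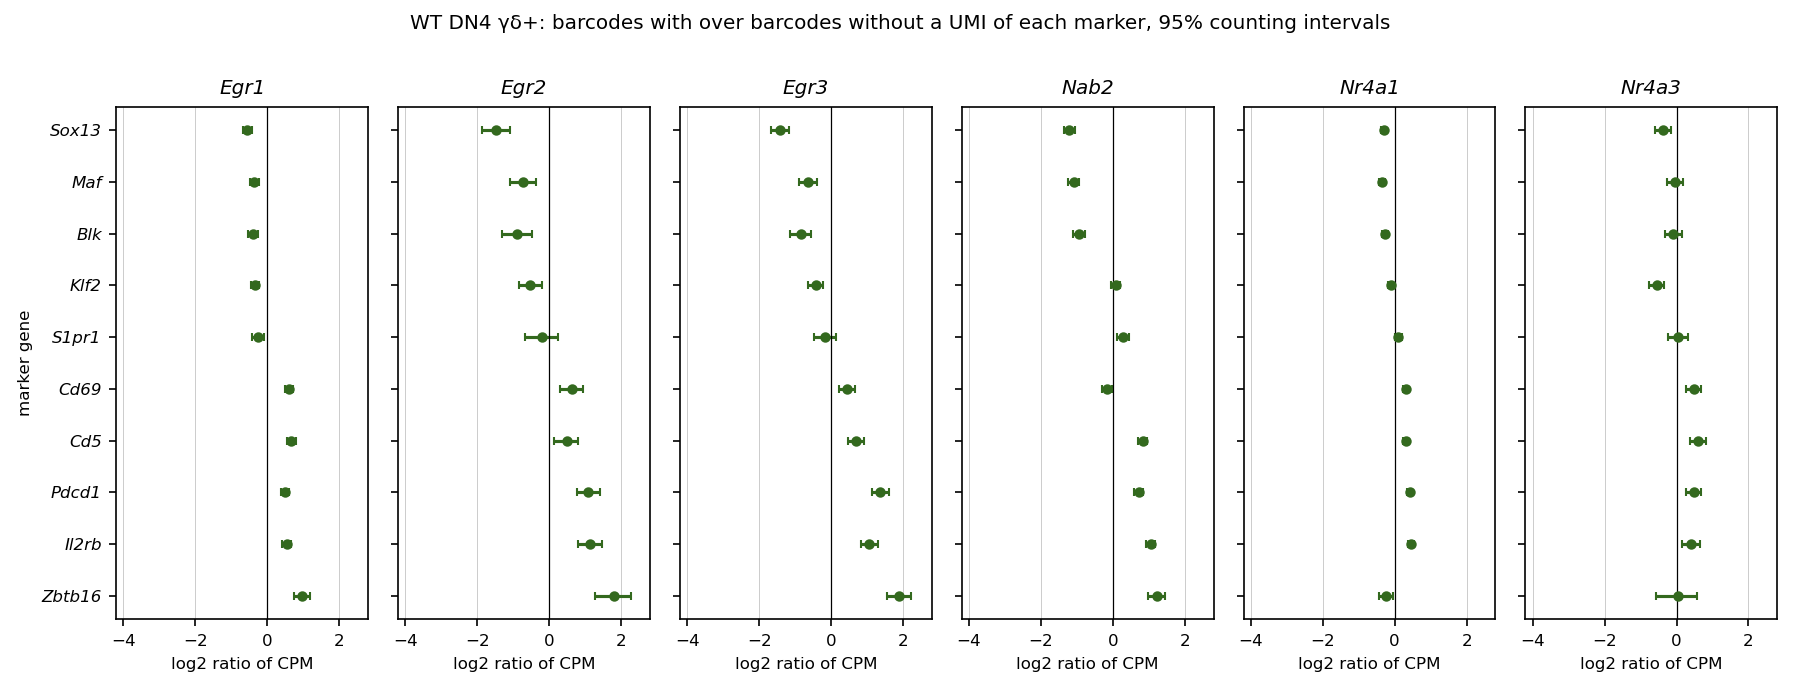
Log2 ratio of the CPM of each gene (panels) in WT DN4 γδ+ barcodes with over those without a UMI of each marker gene (vertical axis), with 95% counting intervals. The Sox13 barcodes lie at -1.47 for Egr2 and the Il2rb barcodes at 1.14.

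The other members of the same families behaved unequally. Egr4 stayed under 5 CPM throughout and had its highest level in WT DN3b γδ+, 1.84 CPM. Nab1, the second EGR corepressor, ranged 2.61-fold, 12.6 CPM at the lowest in WT DN4 γδ- and 32.9 CPM at the highest in WT DN3b γδ+, and had a log2 ratio of 0.67 between γδ+ and γδ- at WT DN3b, where Nab2 had 2.78. Nr4a2, the remaining orphan receptor, stood at 55.0 CPM for WT DN4 γδ+, 29.3 CPM for WT DN3b γδ+ and 7.53 CPM for WT DN3b γδ-. In the Lat-KO libraries it held 27.4 and 24.0 CPM beside 23.6 CPM in WT DN3a. Nr4a2 and Nr4a3 thus stood within 2-fold of WT DN3a in Lat-KO DN3 γδ-, at 0.21 and -0.23, where Nr4a1 was at -3.05.

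Of 12 genes for the kinases and factors upstream of the members, 3 were higher and none lower in WT DN3b γδ+ over WT DN3b γδ-, beside 5.61 and 2.68% of all genes. Nfatc1, a calcium-regulated factor, was the highest at 2.12 and Nfatc3 the lowest at -0.28. Lat-KO DN3 γδ- against WT DN3a had none called in either direction, from Mapk3 (ERK1) at 0.79 to Mef2a at -0.41. Of 29 genes known to respond to T cell receptor signals, 23 were counted in WT DN3b γδ+ over WT DN3b γδ-. Of these, 20 were higher and none lower, with a median of 2.47. The list was chosen with earlier results of these data known. Cd5, Pdcd1 and Etv5 on it belong to the authors' γδ TCR-induced signature, drawn from this same comparison, so this count is not independent support. Xcl1, a chemokine, was the highest at 9.68 and Myc the lowest at -0.74. In Lat-KO DN3 γδ- against WT DN3a, 18 were counted, with none higher and 3 lower, beside 3.47 and 0.832% of all genes, and the chemokine Ccl4 was the lowest at -1.37. In Lat-KO DN3 γδint against WT DN3b γδ+, 13 of 23 were lower and 2 higher, from Xcl1 at -6.78 to Bcl2l11 at 1.87, beside 7.17 and 29.2% of all genes.

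Egr1 and Nr4a1 can also be switched on by tissue handling, so 20 genes of that response are given beside them. In WT DN3b γδ+ over WT DN3b γδ-, 5 of 18 were higher and none lower, beside 5.61 and 2.68% of all genes, with a median of 0.54 and Zfp36 highest at 2.29. In WT DN3b γδ- over WT DN3a, where Egr1 and Nr4a3 were lower, 14 of 19 were lower and none higher, down to Junb at -3.29, beside 18.0% of all genes lower. In WT DN3b γδ+ over WT DN3a 11 of 19 were lower and 1 higher, beside 16.9 and 10.7% of all genes. In WT DN4 γδ+ over WT DN4 γδ-, where all 5 counted members were higher, 13 of 18 were higher and 1 lower. The shares of all genes there were 21.3 and 7.94%, and the medians were 1.38 for the list and 0.22 over all genes. From DN3b to DN4 on the γδ+ side 9 of 18 were higher and 1 lower, beside 13.4 and 6.32% of all genes. Against WT DN3a, Lat-KO DN3 γδ- had none of 19 called, from Ier3 at 0.91 to Hspa1b at -0.98. In Lat-KO DN3 γδint over WT DN3b γδ+ 9 of 19 were higher and none lower, up to Socs3 at 3.80, where 29.2% of all genes were higher. The median of the 19 was 0.82 there, against 0.58 over all genes. The summed level of the 20 was 4992 to 7616 CPM in 6 libraries and 11390 CPM in Lat-KO DN3 γδint, where the heat shock genes Hspa8 and Hsp90aa1 made up 5612 and 2485 CPM. The other 18 summed to 3293 CPM there, beside 3459 CPM in Lat-KO DN3 γδ-, 3392 CPM in WT DN3a and 732.6 to 2536 CPM in the other WT libraries. Their part in the members' levels was not tested.

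Over the 7 libraries, the members were placed by the likeness of their centred log2(CPM + 1) pattern, as the root mean square difference, among 7030 genes with at least 20 CPM in 1 library. Egr2 and Egr3 were the nearest pair of members at 0.373, followed by Egr1 and Nr4a3 at 0.403, and Nr4a1 and Nr4a3 were the farthest apart at 1.83. The genes nearest to Egr1 were Fhl2 (0.279), Nfatc1 (0.365) and Chst15 (0.396). Nearest to Egr2 were Lef1os1 (0.307), Ppp1r16b (0.311) and Arrb2 (0.356). Nearest to Egr3 were Qpct (0.255), Rbpms (0.311) and Lef1os1 (0.393).

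Mpp4 (0.397), Itih5 (0.436) and Cd5 (0.507) were nearest to Nab2. Nr4a1 had Trdc (0.452), Cd5 (0.647) and A430093F15Rik (0.755) as nearest. Trdc encodes the constant region of the δ chain, and the reporter allele of the Lat-KO mice was counted as a feature of its own, which bears on its level there. Nr4a3 had the closest neighbours, Abhd2 (0.190), Anxa4 (0.191) and Srgn (0.193), genes within small distances on its narrow span. Low levels shrink these distances because of the pseudocount of 1 CPM.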

How the data were processed

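Droplet-based 3' single-cell libraries were read as UMI counts per gene and barcode, as deposited by the authors. The authors had aligned the reads with Cell Ranger to mm10, with the edited Trdc allele of the reporter mice added as a feature of its own. The file headers name version 4.0.0 and the submitters' processing notes version 5.0.1, together with R 3.6.3 and Seurat 3.1.5. How the counting used strand was not given in the sources used here. The methods describe gating out doublets by light scatter in the sort, and removing clusters of B and T cell doublets in the authors' own clustering. Whether doublets had been removed from the deposited matrices was not given in the sources used here, and these still hold the spiked B cells.

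Barcodes with at least 200 genes and at most 15% mitochondrial counts were kept. Thymocytes were barcodes with at most 1 UMI of Cd79a, Cd79b and Ms4a1 together. For B cells a barcode needed 10 or more UMIs over 10 B cell markers, 2 or more times those of 10 T cell markers. Counts were summed per library and divided by the summed total (CPM). Levels have exact Poisson, shares exact binomial (Clopper-Pearson) and ratios exact conditional binomial 95% intervals. A level of 0 is set at a floor of 3 UMIs. Ratios were called at 2-fold with at least 5 CPM in 1 library. Barcodes were thinned to 4000 UMIs for shares. Total counts were 49407750 to 375688164 UMIs per library over all barcodes.

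There are 7 libraries, 1 per group, grouped by their labels. Scripts were tested on simulated data. Scipy 1.17.1, scanpy 1.11.5 (Scrublet), Python 3.11.15, pandas 2.3.3, matplotlib 3.10.9, numpy 2.4.6, R 4.3.3 and edgeR 4.0.16 (TMM factors only, no count test) were used, with gene models of GENCODE vM21 and promoters of RefSeq. Scrublet marked 1825 barcodes of WT DN3b γδ+ but no more than 1 of any other library, so it had not worked there and no doublets were removed.

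The 6 genes and the lists were chosen with earlier results of these data known. The genes named beside the 6 are Egr4, Nab1 and Nr4a2, the highest and lowest gene of each list in a comparison, the 3 genes nearest to each member in pattern, and Lat. The effector markers of the γδ libraries were chosen after the values had been seen. Alternatives were TMM, equal weight per barcode, other barcode rules, folds, minimums and thinning depths.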

Additional observations from a re-analysis of the deposited data

Results flagged for a closer look

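Nr4a1 and Nr4a3 differed in sign between the γδ contrasts of the 2 genotypes. Nr4a1 had a log2 ratio of 3.37 between WT γδ+ and γδ- at DN3b and of -0.80 between the γδint and γδ- libraries of Lat-KO DN3. Nr4a3 had 2.40 and -0.58 in the same contrasts. Each contrast holds 1 library a side, the sorted stages differ between the genotypes, and the difference was not tested. The Lat-KO levels of Nr4a1 rest on 72 and 31 UMIs.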

How the results depend on the processing

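No paired analysis was possible because each group has 1 library, and for the same reason no library could be left out. Of 270 counts of members called under the alternatives, 238 stayed within 1.5 times the main count and 32 did not. For WT DN3b γδ- over WT DN3a the count of members higher went from 0 to 1 with the T cell marker rule for thymocytes, with TMM and at 1.5-fold, and the count lower from 2 to 1 in the lowest cell cycle band, with or without a minimum of 10 T cell marker UMIs, to 0 at 4-fold and to 4 with no minimum CPM. From DN3b to DN4 on the γδ- side the count higher went from 1 to 0 with no UMI of Cd79a, Cd79b and Ms4a1, without the top 8% of doublet scores and at 4-fold, and to 3 in the lowest band under either rule, and the count lower from 1 to 0 with the T cell marker rule, in the lowest band under either rule, with equal weight and at 4-fold. From DN3b to DN4 on the γδ+ side the count lower went from 0 to 4 in the lowest band under either rule and to 1 with equal weight and at 1.5-fold. In WT DN4 γδ+ against WT DN4 γδ- the count higher went from 5 to 3 in the lowest band. In Lat-KO DN3 γδ- against WT DN3a the count lower went from 1 to 2 with TMM, without mitochondrial and ribosomal counts and at 1.5-fold, and to 4 with no minimum. For Lat-KO DN3 γδint over γδ- the count higher went from 0 to 2 with no minimum. Nab2 in the DN4 against the DN3b γδ- library reversed from -1.16 to 2.03 in the lowest band and to 2.01 there with at least 10 T cell marker UMIs, a split added after the data had been seen. A second thinning draw for the bands, also added then, gave 1.82 for that Nab2 ratio and counts of 1 lower for WT DN3b γδ- over WT DN3a, 4 higher and 0 lower from DN3b to DN4 on the γδ- side, 3 lower on the γδ+ side and 3 higher between the DN4 libraries. Egr1 between the DN4 libraries, 2.48 at first, was 0.08 in the lowest band and reversed to -0.026 in the second draw. With at least 10 T cell marker UMIs it was 1.21 in that band. The cause was not tested. TMM shifted the log2 ratios by -0.74 to 0.36 between comparisons. Doublets were not checked, since the scores left out came from a caller that had not worked. Leaving out shared barcodes moved 0 of 54 ratios beyond their intervals, TMM 24 and the lowest band 42. Depth limits Egr2, Egr3 and Nab2 in the Lat-KO libraries, on 9 to 47 UMIs.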
